A study of Mus musculus with 12 samples.

Results

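A set of 8 noncoding genes was followed through acute systemic inflammation in mouse cerebral vessels: the microRNA host genes Mir155hg, Mir17hg and Mir22hg, the snoRNA host genes Gas5 and Snhg1, the imprinted RNA Meg3, and the nuclear RNAs Neat1 and Malat1. These 8 genes were chosen by name, out of 54119 genes with estimates, and all 8 were among the 19150 genes that passed the filter on low counts. The vessels came from the forebrain of wild type C57BL6 mice of 2 to 3 months that had received LPS, a bacterial cell wall component, at 10 mg/kg into the peritoneum for 15 min, 30 min or 4 h, or PBS. Each of the 4 groups had 3 libraries, and every library pooled the vessels of 1 male and 1 female mouse. The mice had been perfused with cold PBS, and vessels were retained on a mesh after homogenization and dextran separation, so each library is bulk RNA of all cells that stayed with the vessels. Fewer cells of a type and less RNA per cell cannot be told apart in such data.

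A microRNA host gene is transcribed into a long primary RNA from which the nuclear enzyme Drosha cuts a hairpin, and Dicer then trims the hairpin to a microRNA that represses messages through its seed. A snoRNA host gene carries small nucleolar RNAs in its introns, which are released by splicing and guide chemical modification of ribosomal RNA, while the spliced host RNA is often removed by nonsense-mediated decay. Neat1 is the scaffold of the paraspeckle, a nuclear body, and Malat1 is an abundant RNA of nuclear speckles. Meg3 is a maternally expressed RNA of the imprinted Dlk1-Dio3 locus, known for high levels in neurons and also studied in endothelial cells.

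The libraries were made from cDNA primed on poly(A) and carried no strand, so the long host RNA was measured and the small RNAs were not. Of the 28 microRNA and snoRNA genes annotated on the same strand inside the members, the files assigned 0 fragments to every one in all 12 libraries. Statements on the host genes therefore say nothing about the level of the mature small RNAs. The mature microRNAs that the 3 microRNA hosts encode are printed here because they are what links these transcripts to their known roles. They are given 5′ to 3′ as RefSeq lists them, with the seed (bases 2 to 8) in capitals.
miR-155-5p: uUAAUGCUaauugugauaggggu
miR-22-3p: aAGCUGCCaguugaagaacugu
miR-17-5p: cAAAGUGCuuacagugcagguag
miR-20a-5p: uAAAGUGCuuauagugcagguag
miR-18a-5p: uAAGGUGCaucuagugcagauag
miR-19a-3p: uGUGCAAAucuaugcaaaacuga
miR-19b-3p: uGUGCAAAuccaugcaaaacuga
miR-92a-3p: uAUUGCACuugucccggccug
The first comes from Mir155hg (chr16:84714143-84714165, plus strand, GRCm38.p6), the second from Mir22hg (chr11:75463772-75463793, plus strand), and the rest from Mir17hg, where they lie between chr14:115043684 and chr14:115044496 on the plus strand. miR-17-5p and miR-20a-5p share 1 seed, miR-19a-3p and miR-19b-3p share another, and the miR-18a-5p, miR-92a-3p, miR-155-5p and miR-22-3p seeds are each found once in the set. All of the hairpins lie in an exon of the host transcript.

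The annotated snoRNA genes sit in introns in both hosts, 10 in Gas5, of which 1 carries the microRNA name Mir5117, and 8 in Snhg1. Those of Gas5 include Snord80 annotated again at chr1:161037604-161037680, inside the Snord80 gene printed below. A pair from each host is printed as GENCODE gives the gene, with the first TGATGA, the core of box C, and the last CTGA, the box D, in capitals. These boxes mark the class that guides methylation of ribosomal RNA.
Gm22744: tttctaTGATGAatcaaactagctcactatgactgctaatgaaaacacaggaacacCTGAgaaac
Gm24452: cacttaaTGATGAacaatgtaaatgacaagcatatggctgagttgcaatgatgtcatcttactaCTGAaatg
Snord47: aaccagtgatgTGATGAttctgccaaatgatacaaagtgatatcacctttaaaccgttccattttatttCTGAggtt
Snord80: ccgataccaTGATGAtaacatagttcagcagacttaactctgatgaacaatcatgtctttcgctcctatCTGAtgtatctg
Snord47 (chr1:161038082-161038158) and Snord80 (chr1:161037601-161037681) belong to Gas5. Gm22744 (chr19:8725092-8725156) and Gm24452 (chr19:8724531-8724602) belong to Snhg1, all on the plus strand of GRCm38.

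Depth was 18.3 to 25.9 M fragments per library. The summed level of 6 endothelial markers was 8394 to 8683 CPM in PBS and 5937 to 5990 CPM at LPS 4 h, against 326 to 340 CPM and 247 to 258 CPM for 6 neuron markers. The 5 erythroid markers summed to 2317 to 2492 CPM in PBS and 6941 to 7306 CPM at LPS 4 h, above the endothelial sum at that time. CPM is the fragment count scaled to the library total and a TMM factor, which sets libraries to a common level over most genes. Scaling matters at LPS 4 h: with library size alone the median of all genes would lie at -0.71 on the log2 scale against PBS. Changes in CPM and log2 fold changes are therefore relative to the bulk of the genes, except where library size alone is named. Levels of sex-linked genes differed across the pools. Xist, which is made by female cells, was 254 to 371 CPM in PBS, 31.5 to 108 CPM at LPS 15 min, 11.6 to 20.9 CPM at LPS 30 min and 125 to 184 CPM at LPS 4 h. The Y-linked genes, named after their values were seen, did not share 1 course. In the same groups Ddx3y was 40.2 to 54.4, 60.5 to 79.2, 103 to 106 and 141 to 151 CPM. Kdm5d had means of 21.7, 32.8, 30.02 and 25.05 CPM, Eif2s3y of 39.02, 65.9, 56.8 and 62.4 CPM, and Uty of 24.1, 26.9, 35.1 and 43.7 CPM. The part of the sex mixture in the results on the 8 genes was not tested.

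Levels between genes were compared per length, in TPM. TPM was not scaled by the TMM factor, so it serves to order genes within a group and not to measure change between groups. In PBS the order was Meg3 (788 ± 4.76 TPM, SD, n = 3 here and throughout), Neat1 (577 ± 30.9), Malat1 (457 ± 39.8), Gas5 (347 ± 13.1), Snhg1 (54.3 ± 3.07), Mir22hg (18.6 ± 1.02), Mir17hg (3.37 ± 0.187) and Mir155hg (0.438 ± 0.293). The libraries of neighbouring genes in this order did not overlap. At LPS 4 h Mir155hg reached 27.2 ± 1.02 TPM and stood above Mir17hg at 13.7 ± 0.229 TPM, whereas Neat1 (332 to 357 TPM) and Malat1 (328 to 345 TPM) overlapped.

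Genes were called by edgeR's quasi-likelihood test against a change of at most 1.5-fold, at an adjusted p below 0.05 over all genes tested. At LPS 15 min 1 of the 8 genes was called, Meg3, where 4.18% of all genes were called (3.31% higher, 0.872% lower). At LPS 30 min 1 of 8 was called, Mir155hg, where 4.58% of all genes were called (3.78% higher, 0.799% lower). At LPS 4 h 5 of 8 were called, all higher, where 32.8% of all genes were called (19% higher, 13.8% lower). These were Mir155hg, Mir17hg, Mir22hg, Snhg1 and Gas5. Between LPS 15 min and LPS 30 min 2 of 8 were called, Mir155hg higher and Meg3 lower, with 4.65% of all genes called (2.69% higher, 1.96% lower), and between LPS 30 min and LPS 4 h 4 of 8, all higher, with 28.6% of all genes called (16.9% higher, 11.8% lower). The comparisons with PBS share the PBS libraries. Without the 1.5-fold limit, when any difference from 0 counts, 6, 5 and 8 of the 8 genes passed at the 3 times against PBS, beside 38.6%, 36.9% and 68.5% of all genes. Between successive times 4 and 8 passed, beside 37.4% and 65.3%. The libraries of 5, 7 and 8 of the 8 genes did not overlap with PBS at the 3 times, beside 49.3%, 46.7% and 70.9% of all genes, and those of 5 and 8 did not overlap between successive times, beside 47.6% and 67.5%. At each time these shares show that separation of the groups was common in the data.

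**Figure D1:**
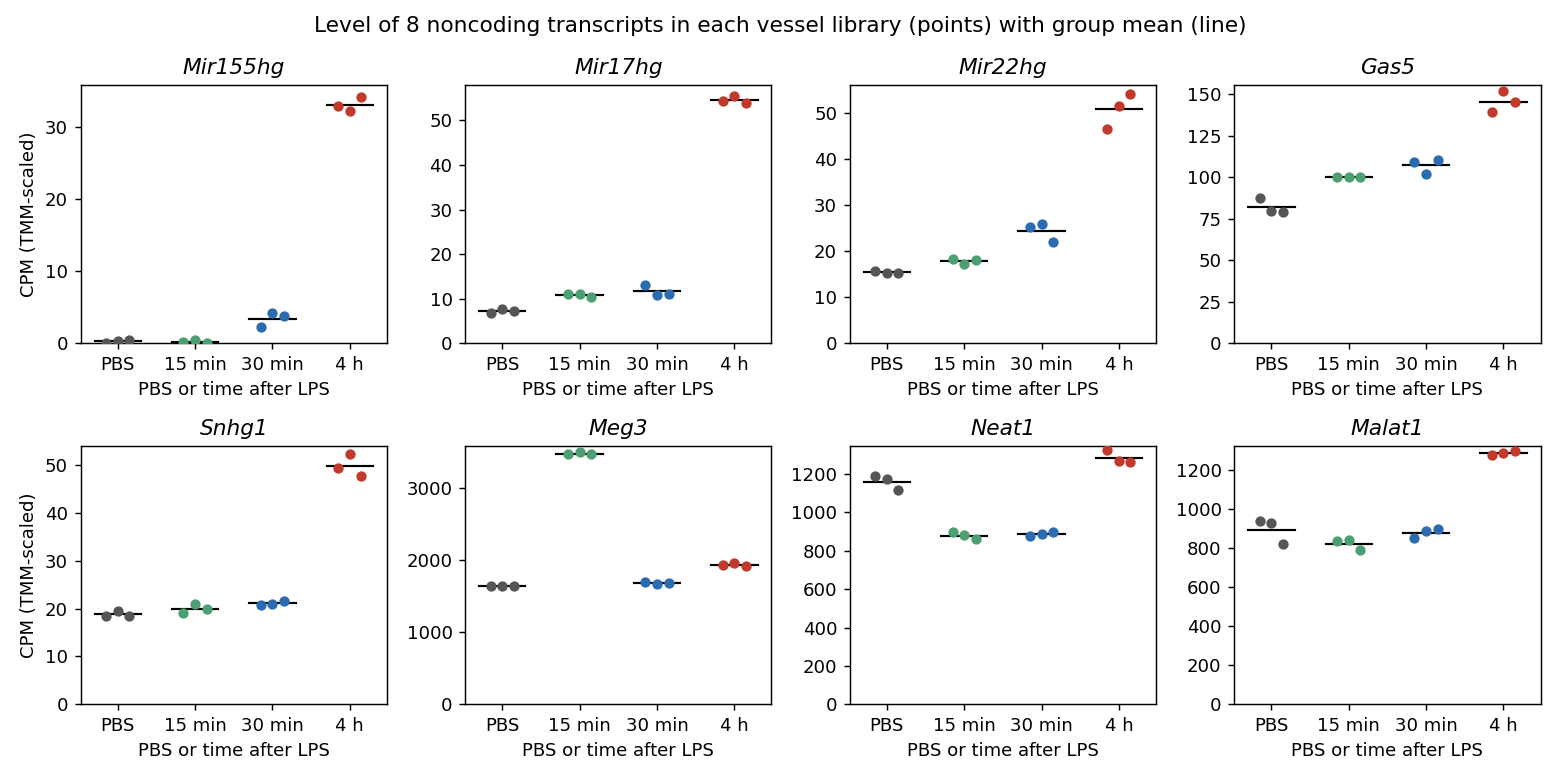
Level of each gene in CPM after TMM scaling (y axis from 0, own scale per panel) in PBS and at the 3 times after LPS. Points are libraries and lines are group means: the microRNA hosts and Snhg1 are highest at 4 h, and Meg3 is highest at 15 min, near 3484 CPM.

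**Figure D2:**
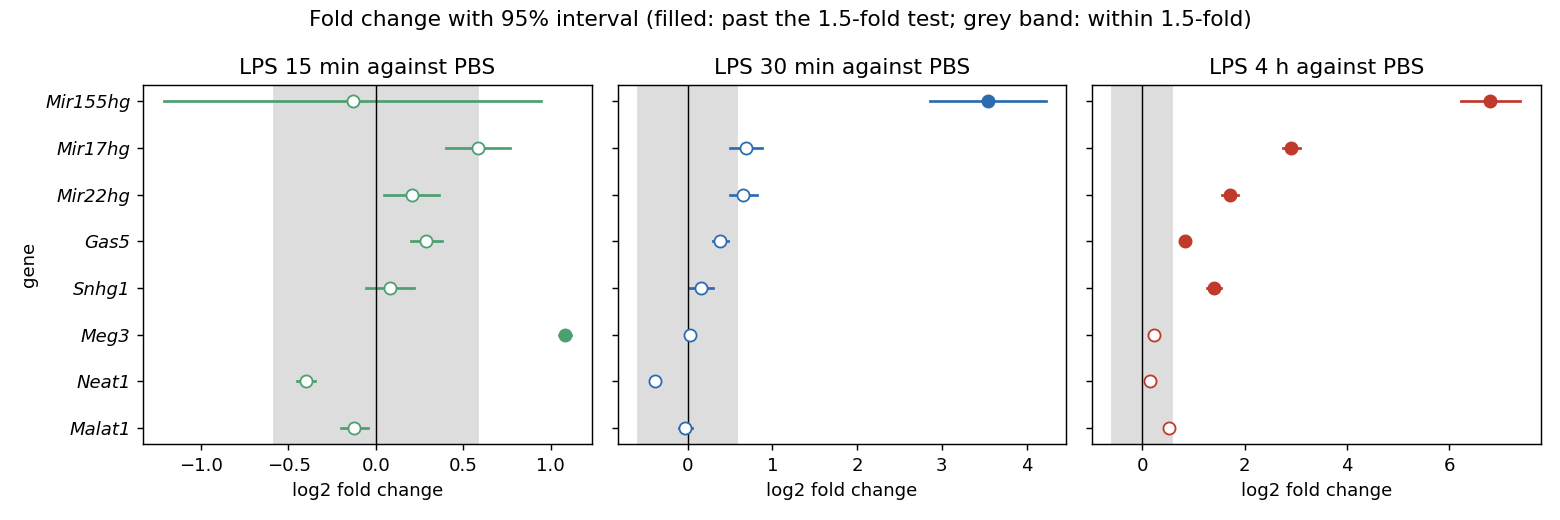
log2 fold change of each gene against PBS at the 3 times, with its 95% interval. Filled points passed the test against 1.5-fold and the grey band spans changes within 1.5-fold: Meg3 is filled at 15 min, Mir155hg at 30 min, and 5 genes at 4 h.

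Mir155hg (ENSMUSG00000097418, chr16:84703167-84715245, plus strand) had the largest fold changes of the 8 genes. It encodes miR-155, a microRNA induced in activated immune and endothelial cells. The 3 PBS libraries held 2, 10 and 12 fragments and the LPS 15 min libraries 8, 10 and 3. Those of LPS 30 min held 54, 98 and 85 fragments, and those of LPS 4 h held 426, 483 and 499. In CPM the libraries were 0.0749, 0.337 and 0.458 in PBS, 0.271, 0.425 and 0.113 at LPS 15 min, 2.34, 4.22 and 3.80 at LPS 30 min, and 32.8, 32.2 and 34.1 at LPS 4 h. The PBS and LPS 15 min libraries overlapped, and every LPS 30 min library stood above both groups and below every LPS 4 h library. The log2 fold change was -0.13 at LPS 15 min, with a 95% interval of -1.21 to 0.95, so a change in either direction was not detectable at this depth. It was 3.54 at LPS 30 min (SE 0.328, adjusted p = 1.35e-07), or 11.7-fold, and 6.80 at LPS 4 h (SE 0.279, adjusted p = 1.29e-15), or 112-fold. LPS 30 min differed from LPS 15 min by 3.68 (SE 0.337) and LPS 4 h from LPS 30 min by 3.26 (SE 0.203, adjusted p = 1.59e-11). The few fragments in PBS limit the size of these folds: leaving out single libraries moved the LPS 4 h value between 6.36 and 7.24.

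Markers of blood cells moved at LPS 4 h together with Mir155hg. The 5 neutrophil markers summed to 2.06 to 2.67 CPM in PBS, 0.71 to 1.36 CPM at LPS 15 min, 3.01 to 4.98 CPM at LPS 30 min and 170 to 175 CPM at LPS 4 h, and all 4 that could be tested rose at LPS 4 h, led by Mmp8 (6.54) and S100a9 (6.22). The 3 monocyte markers summed to 38.5 to 47.5 CPM in PBS, 63.1 to 68.8 CPM at LPS 15 min, 68.2 to 77.1 CPM at LPS 30 min and 114 to 121 CPM at LPS 4 h. At LPS 30 min against PBS, 0 of the 4 neutrophil markers were called by edgeR (0 at an unadjusted p under 0.05 and 0 by DESeq2) and 1 of the 3 monocyte markers was, Ly6c2 (0.88). The monocyte markers differed in direction early. Against PBS they ran from -1.23 to 0.72 at LPS 15 min, from -1.19 to 0.88 at LPS 30 min and from 0.38 to 5.61 at LPS 4 h. At LPS 30 min against LPS 15 min, 2 of the 4 neutrophil markers were called higher, S100a9 (2.35) and S100a8 (1.71), with a median of 1.82 (3 at an unadjusted p under 0.05 and 1 by DESeq2), and 0 of the 3 monocyte markers (0 at an unadjusted p under 0.05 and 0 by DESeq2). The 6 microglia markers summed to 103 to 110 CPM in PBS and 64.5 to 69.3 CPM at LPS 4 h, and the 5 T and B cell markers to 7.72 to 9.21 CPM and 3.93 to 4.99 CPM. The part of these cells in the Mir155hg values was not tested.

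Genes widely described as repressed by miR-155 were taken as a list. Of 8 tested, 6 rose and 1 fell at LPS 4 h, when 32.8% of all genes were called (19% higher, 13.8% lower). Their median log2 fold change was 1.63 beside -0.01 over all genes. The C/EBP factor Cebpb rose most (5.32), followed by the cytokine signalling inhibitor Socs1 (4.44), the myeloid factor Spi1 (2.73) and Bach1 (1.70). The phosphatase gene Inpp5d, which encodes SHIP1, was the one that fell (-1.12, adjusted p = 1.62e-06). At LPS 30 min 1 of the 8 was called, Cebpb (3.05), when 4.58% of all genes were called. At LPS 15 min 0 were, with 0 at an unadjusted p under 0.05 and 0 by DESeq2.

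Mir17hg (ENSMUSG00000089726, chr14:115042879-115046727, plus strand), the host of the miR-17-92 cluster known for its part in proliferation and in vessel growth, was 6.89, 7.63 and 7.18 CPM in PBS and 54.3, 55.5 and 53.8 CPM at LPS 4 h. At LPS 15 min it was 11.12, 11.002 and 10.45 CPM and at LPS 30 min 13.1, 10.8 and 11.1 CPM. Every library after LPS stood above every PBS library, and the LPS 15 min and LPS 30 min libraries overlapped. The rise at LPS 4 h was 2.91 on the log2 scale (SE 0.0817, adjusted p = 4.14e-18), or 7.52-fold, and 2.22 against LPS 30 min (SE 0.0786). The earlier differences of 0.58 (SE 0.0885) and 0.69 (SE 0.0892) did not pass the test against 1.5-fold, with an adjusted p of 1 and 0.522, but passed the test against no change (adjusted p = 1.22e-05 and 1.53e-06).

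Of 7 genes widely described as repressed by the miR-17-92 cluster, 3 rose and none fell at LPS 4 h, with a median of 0.67. Of all genes, 19% were called higher and 13.8% lower at that time. Those of the list that rose were the matrix protein gene Thbs1 (4.42), the cell cycle inhibitor Cdkn1a (4.197) and the pro-apoptotic Bcl2l11 (1.45). Cdkn1a had already risen at LPS 15 min (1.02) and LPS 30 min (2.42). E2f1, a cell cycle factor gene, was at -0.17 at LPS 4 h and was not called.

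Mir22hg (ENSMUSG00000085148, chr11:75461539-75466676, plus strand) was higher at each later time. Its libraries were 15.8, 15.3 and 15.4 CPM in PBS, 18.3, 17.3 and 18.0 CPM at LPS 15 min, 25.4, 26.0 and 22.1 CPM at LPS 30 min, and 46.6, 51.7 and 54.2 CPM at LPS 4 h. No group overlapped with another. The rise at LPS 4 h was 1.71 (SE 0.073, adjusted p = 2.56e-13), or 3.28-fold, and LPS 4 h exceeded LPS 30 min by 1.05 (SE 0.0708). At LPS 30 min the value was 0.66 (SE 0.0744) and did not pass the 1.5-fold test (adjusted p = 0.669), and at LPS 15 min it was 0.21 (SE 0.0757). The gene shares bases on the same strand with Tlcd2, whose fragments came to 5.07% of those of Mir22hg on average.

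Of 15 genes of the machinery that makes and uses microRNAs, 0 were called at LPS 15 min and LPS 30 min by edgeR, 0 of them at an unadjusted p under 0.05 and 0 by DESeq2, and at LPS 4 h 1 rose and 3 fell, when 32.8% of all genes were called. The Argonaute genes, whose proteins bind mature microRNAs, differed in direction: Ago2 rose (0.80, adjusted p = 1.71e-05) while Ago4 (-1.197) and Ago1 (-1.09) fell. Prkra, a Dicer partner, also fell (-0.95). Drosha (-0.25), Dicer1 (-0.22) and Dgcr8 (-0.61) were not called. Of the 5 other microRNA host genes that could be tested, 0 were called at LPS 30 min and LPS 4 h by edgeR, 0 at an unadjusted p under 0.05 and 0 by DESeq2, and the pair called at LPS 15 min is described with Meg3.

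Snhg1 (ENSMUSG00000108414, chr19:8723475-8726443, plus strand) was 18.4, 19.5 and 18.5 CPM in PBS, 18.99, 21.03 and 19.85 CPM at LPS 15 min, 20.7, 21.04 and 21.5 CPM at LPS 30 min, and 49.4, 52.4 and 47.7 CPM at LPS 4 h. Only the LPS 4 h libraries stood far from the rest. The rise at LPS 4 h was 1.40 (SE 0.0636, adjusted p = 7.45e-12), or 2.65-fold, and 1.24 against LPS 30 min (SE 0.064). The values of 0.08 at LPS 15 min (95% interval -0.05 to 0.22) and 0.16 at LPS 30 min (0.03 to 0.30) did not pass either test.

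Gas5 (ENSMUSG00000053332, chr1:161034422-161038539, plus strand), named for its accumulation in growth-arrested cells, rose less. It was 87.5, 79.8 and 78.9 CPM in PBS, 100.1 to 100.2 CPM at LPS 15 min, 109, 102 and 111 CPM at LPS 30 min, and 139, 152 and 145 CPM at LPS 4 h. The 4 groups did not overlap. The change at LPS 4 h was 0.83 (SE 0.0437, adjusted p = 6.77e-06), or 1.77-fold. The values of 0.29 at LPS 15 min (SE 0.0428) and 0.39 at LPS 30 min (SE 0.043) did not pass the 1.5-fold test (adjusted p = 1 for both) but passed the test against no change (adjusted p = 9.93e-06 and 1.75e-07). The call at LPS 4 h was lost when transcript length was taken into account: the log2 fold change became 0.59 with an offset for average transcript length (adjusted p = 0.448), and 0.59 by limma on the authors' table, which is scaled for length (adjusted p = 0.94 with 1 added).

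The estimates for single Gas5 transcripts differed between transcript classes. Of the 25 annotated Gas5 transcripts, 20 are of the retained-intron class, meaning that at least 1 intron stays in. This grouping by class was made after the values were seen. Retained-intron transcripts took 52.1, 46.3 and 48.7 CPM in PBS, 69.0, 64.9 and 66.2 CPM at LPS 15 min, 71.5, 67.5 and 72.2 CPM at LPS 30 min, and 103.8, 116.1 and 107.6 CPM at LPS 4 h. The other Gas5 transcripts, which are spliced, took 35.4, 33.5 and 30.3 CPM in PBS and 35.3, 35.8 and 37.5 CPM at LPS 4 h. So the retained-intron class was higher in every LPS library than in any PBS library, and the spliced class overlapped between PBS and LPS 4 h. The ratio of group means at LPS 4 h was 1.16 on the log2 scale for the first class and 0.13 for the second.

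As a share of all Gas5 fragments, the retained-intron class was 59.7% ± 1.84 in PBS. It was 66.6% ± 2.15 at LPS 15 min and 65.7% ± 0.476 at LPS 30 min, and it reached 75.1% ± 1.203 by LPS 4 h. Each LPS time differed from PBS without overlap, with p = 0.1 by an exact two-sided permutation test, which is the smallest p that 3 against 3 libraries can give. The spliced Gas5-210 (557 bases) was at 21.2% ± 1.38 in PBS and 11.95% ± 0.589 at LPS 4 h (exact permutation p = 0.1), and the retained-intron Gas5-222 (1614 bases) at 17.5% ± 2.57 and 25.3% ± 3.59 (exact permutation p = 0.1). As a share of TPM, which divides by length, the retained-intron class was 37.2% in PBS and 53.5% at LPS 4 h. Unspliced precursor and stable RNA with an intron cannot be told apart by these estimates. Zbtb37, which overlaps the start of Gas5 on the other strand, held fragments worth 17.0% of those of Gas5 on average, and strand cannot be resolved there.

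Both classes of Snhg1 were higher at LPS 4 h. Its retained-intron class, 14 of 18 transcripts, was 10.1 ± 0.573 CPM in PBS and 28.9 ± 3.18 CPM at LPS 4 h, and its other transcripts were 8.69 ± 0.832 and 20.9 ± 1.13 CPM. The share of the class was 53.9% ± 3.51 in PBS and 58.0% ± 3.70 at LPS 4 h, which overlapped (exact permutation p = 0.3). The difference in shift between the 2 genes was not tested.

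**Figure D3:**
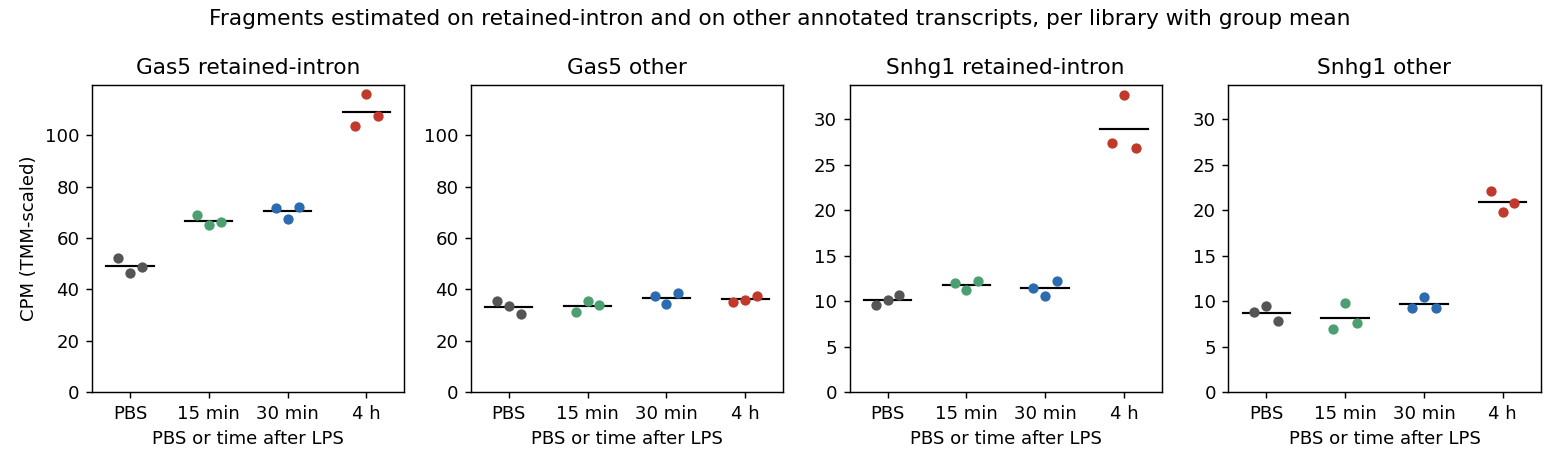
CPM (y axis from 0, one scale per gene) estimated on retained-intron and on other annotated transcripts of Gas5 and Snhg1, by group. Points are libraries and lines are means: the Gas5 retained-intron class goes from 49.0 to 109 CPM by 4 h while its other transcripts go from 33.1 to 36.2 CPM, and both Snhg1 classes are highest at 4 h.

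Of 14 other snoRNA hosts tested, 6 rose, 0 fell and 8 were not called at LPS 4 h, when 19% of all genes were called higher, with a median of 0.30 beside -0.01 over all genes. Snhg15 rose most (2.28, SE 0.146), then Zfas1 (1.47, SE 0.093), Snhg5 (1.23, SE 0.306) and Snhg6 (1.22, SE 0.128). DESeq2 called 4 of the 14. At LPS 30 min 0 of the 14 were called by edgeR, with 1 at an unadjusted p under 0.05 and 0 by DESeq2, and at LPS 15 min 1 was, Snhg14 (0.88). Of 14 genes for the proteins that assemble with snoRNAs, 7 rose and 0 fell at LPS 4 h, when 19% of all genes were called higher, with a median of 0.76. The box C/D core protein Nop58 rose most (2.11, SE 0.0576), and Nufip1, an assembly factor, rose by 1.29, the H/ACA protein Gar1 by 1.10 and the methyltransferase Fbl by 1.07. The H/ACA enzyme Dkc1 was at -0.11 and was not called. At LPS 15 min and LPS 30 min 0 of the 14 were called by edgeR, 0 at an unadjusted p under 0.05 and 0 by DESeq2.

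Of 10 genes of nonsense-mediated decay, 3 rose and 1 fell at LPS 4 h, when 32.8% of all genes were called, with a median of 0.12. The largest rise in the list was 1.82, of a gene not reported here by name. Smg8 (0.92) and the kinase gene Smg1 (0.72) also rose, and the endonuclease gene Smg6 fell (-0.80). The helicase gene Upf1, at the centre of the pathway, was at 0.17 and was not called.

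**Figure D4:**
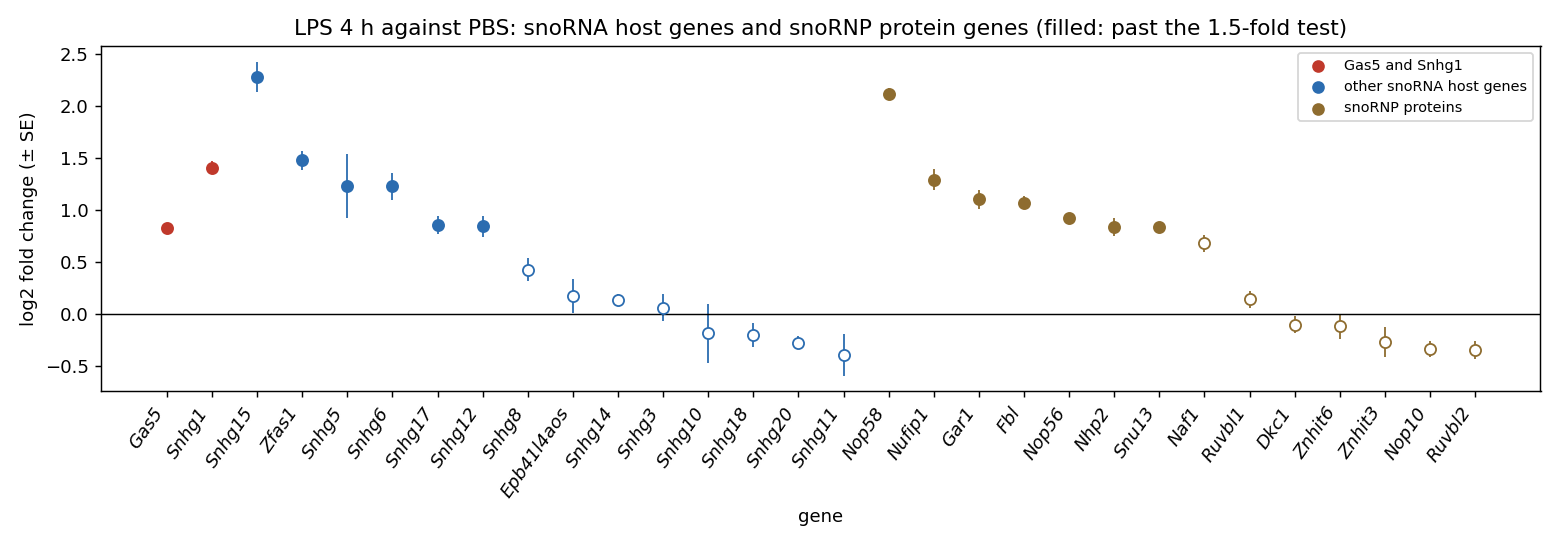
log2 fold change at LPS 4 h against PBS, with its SE, for Gas5 and Snhg1, the 14 other snoRNA host genes and the 14 snoRNP protein genes. Filled points passed the test against 1.5-fold: 6 other hosts and 7 protein genes are filled, all above 0, and Snhg15 and Nop58 lead their groups.

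Meg3 (ENSMUSG00000021268, chr12:109541001-109571726, plus strand) was the one member called at LPS 15 min. Its libraries were 1644, 1642 and 1648 CPM in PBS, 3476, 3501 and 3475 CPM at LPS 15 min, 1693, 1667 and 1681 CPM at LPS 30 min, and 1928, 1959 and 1917 CPM at LPS 4 h. The LPS 15 min libraries stood far above all others, and those of LPS 30 min were close to PBS. The change at LPS 15 min was 1.08 (SE 0.0173, adjusted p = 2.27e-17), or 2.12-fold, and leaving out single libraries gave 1.08 to 1.09. LPS 30 min was lower than LPS 15 min by -1.05 (SE 0.0173, adjusted p = 4.49e-17), and against PBS it was at 0.03 (95% interval -0.0048 to 0.07). At LPS 4 h the value was 0.23 (SE 0.0172), which did not pass the 1.5-fold test and turned to -0.47 with library size alone.

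All 4 Meg3 transcripts compared were higher in every LPS 15 min library than in any PBS library. The longest, Meg3-209 (14548 bases), was 1209 ± 6.39 CPM in PBS and 2677 ± 24.2 CPM at LPS 15 min. Meg3-201 (1988 bases) was 151 ± 5.40 and 302 ± 2.98 CPM, Meg3-206 was 71.7 ± 9.51 and 144 ± 6.82 CPM, and Meg3-211 was 54.5 ± 3.95 and 98.2 ± 3.56 CPM. Unlike the others, Meg3-211 was highest at LPS 4 h (114 ± 8.57 CPM), with each library above those of LPS 15 min. It was 73.5 ± 9.87 CPM at LPS 30 min. The share of Meg3-209 was 73.5% ± 0.525 in PBS, 76.8% ± 0.455 at LPS 15 min and 69.1% ± 0.794 at LPS 4 h, without overlap with PBS at either time (exact permutation p = 0.1 for each). As a share of TPM it was 16.7% in PBS, 19.8% at LPS 15 min and 12.7% at LPS 4 h.

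Of the neighbours of Meg3 in the Dlk1-Dio3 locus, the maternal noncoding RNAs Mirg and Rian moved with it. Mirg rose by 1.43 at LPS 15 min (SE 0.0594, adjusted p = 2.37e-11), from 23.4 ± 1.35 to 63.0 ± 3.87 CPM, and Rian by 0.86 (SE 0.0587, adjusted p = 0.000506), from 65.4 ± 5.93 to 118 ± 8.56 CPM. Both fell again by LPS 30 min, by -0.84 and -1.29 against LPS 15 min. Rtl1, a paternally expressed gene with an antisense maternal transcript, also rose (1.22, SE 0.125), and its strands cannot be separated here. The protein-coding Dlk1 (0.21, SE 0.18) and Dio3 (0.16, SE 0.55) were not called. Their levels in PBS were low, at 3.88 ± 0.223 and 0.558 ± 0.329 CPM. At the SE of Dio3, a change as large as that of Meg3 could have been missed. In all, 4 of 16 listed imprinted genes rose and 1 fell at LPS 15 min, with a median of -0.01. Of all genes, 4.18% were called at that time (3.31% higher, 0.872% lower). The called imprinted genes not yet named were Peg3 (0.78) and Nnat (-0.80).

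The microRNA host genes Mir124a-1hg (1.30, SE 0.0338) and Mir124-2hg (1.14, SE 0.0908) rose at LPS 15 min, and both fell by LPS 30 min against LPS 15 min (-1.19 and -1.03). The summed level of the 6 neuron markers was 326 to 340 CPM in PBS, 499 to 509 CPM at LPS 15 min and 310 CPM in each LPS 30 min library. Of these, Slc17a7 (1.24) and Syt1 (0.70) rose at LPS 15 min by edgeR, where DESeq2 called 1 of the 6, and Rbfox3 (0.62), Gad1 (0.28), Snap25 (0.19) and Nefl (-0.11) were not called. The sum of the astrocyte markers went the other way, from 302 to 332 CPM in PBS to 192 to 212 CPM at LPS 15 min. Of these 5 markers only Gfap was called, and it fell (-1.20). The 5 differed in direction, with a median of -0.22, and the largest change in size among them was a rise that was not called. The smooth muscle markers, of which 3 of 4 fell, went in sum from 2346 to 2382 CPM to 1488 to 1508 CPM. No neuron marker was at 0. The part of retained neuronal material in the Meg3 values was not tested.

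**Figure D5:**
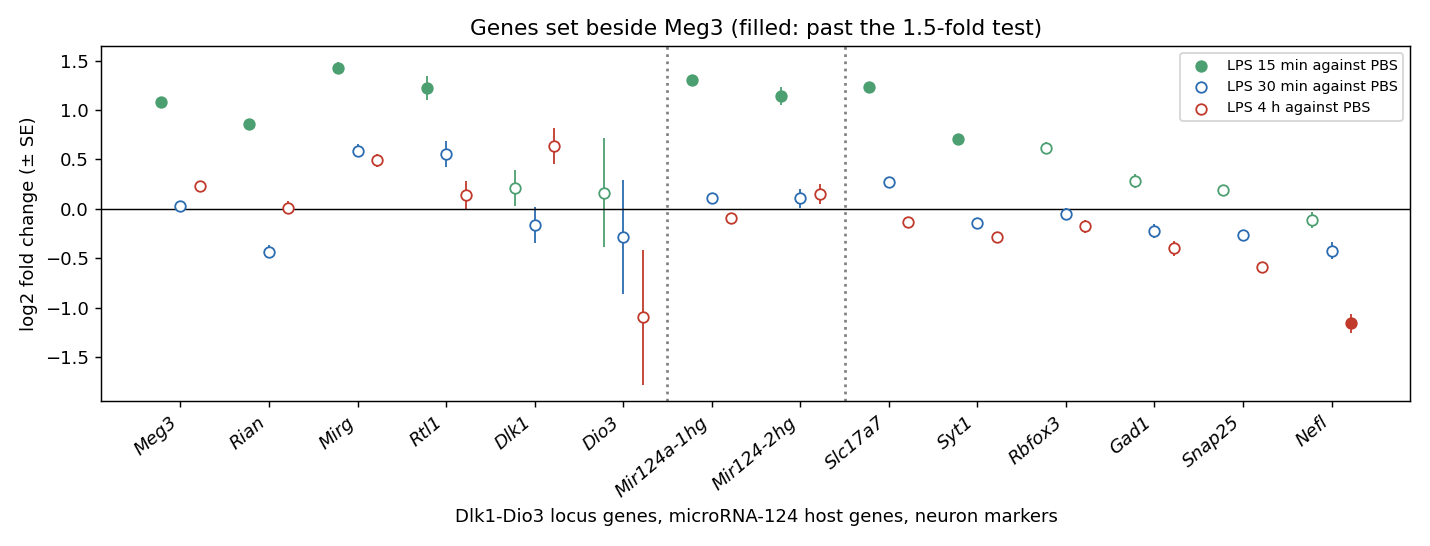
log2 fold change against PBS with its SE at the 3 times for genes of the Dlk1-Dio3 locus, the host genes Mir124a-1hg and Mir124-2hg and the 6 neuron markers. Filled points passed the test against 1.5-fold: Meg3, Rian, Mirg, Rtl1, both of these host genes, Slc17a7 and Syt1 are filled at 15 min, and of the genes shown only Nefl is filled at another time (4 h).

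Promoter windows of 250 bases before to 50 after a start were listed by RefSeq for 7 of the 8 genes, with 2 windows each for Gas5 and Meg3. The starts listed for Mir155hg and Mir17hg lie 9856 and 1511 bases inside the GENCODE gene, and their windows are not printed. For Mir155hg this is the annotated start of Mir155hg-201, to which all of its fragments were assigned. That window holds a CCAAT match on the minus strand, 205 bases before the start. Windows are printed for Meg3, the one member called at LPS 15 min, and for the snoRNA hosts Snhg1 and Gas5. Both hosts were called higher at LPS 4 h in the main test, though Gas5 not under every setting. The printed windows run 5′ to 3′ on the plus strand, with matches to 3 of the 8 motifs searched in capitals. These are the cyclic AMP response element TGACGTCA, the TATA box TATAAA and the CCAAT box CCAAT, each searched on both strands.
Meg3: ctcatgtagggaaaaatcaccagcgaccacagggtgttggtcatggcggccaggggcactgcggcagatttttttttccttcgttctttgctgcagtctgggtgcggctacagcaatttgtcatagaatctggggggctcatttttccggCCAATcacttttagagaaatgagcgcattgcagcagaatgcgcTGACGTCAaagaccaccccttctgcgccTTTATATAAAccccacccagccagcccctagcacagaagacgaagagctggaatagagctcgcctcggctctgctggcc
Gas5: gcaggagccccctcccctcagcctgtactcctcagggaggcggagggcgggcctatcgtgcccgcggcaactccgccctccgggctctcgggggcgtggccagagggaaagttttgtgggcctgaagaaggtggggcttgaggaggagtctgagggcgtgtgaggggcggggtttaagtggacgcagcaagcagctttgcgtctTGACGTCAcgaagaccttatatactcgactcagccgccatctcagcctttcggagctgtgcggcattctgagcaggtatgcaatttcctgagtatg
Snhg1: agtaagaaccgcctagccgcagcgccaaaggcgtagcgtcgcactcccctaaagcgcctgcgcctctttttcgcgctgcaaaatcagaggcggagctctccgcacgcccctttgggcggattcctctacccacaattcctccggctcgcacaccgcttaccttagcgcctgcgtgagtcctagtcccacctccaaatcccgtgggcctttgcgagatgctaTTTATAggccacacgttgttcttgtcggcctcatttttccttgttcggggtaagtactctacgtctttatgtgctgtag
The windows are chr12:109540746-109541045 for Meg3, chr1:161034916-161035215 for the second Gas5 start (its other window held none of the 3 motifs), and chr19:8723237-8723536 for Snhg1 (GRCm38.p6). Meg3 holds TGACGTCA beginning 57 bases before the start, TATAAA on both strands 29 and 25 bases before it, where the matches overlap, and CCAAT 100 bases before it. Gas5 holds TGACGTCA 46 bases before its second start, and Snhg1 holds TATAAA on the minus strand 29 bases before its start. Of all 32851 windows, 1.79% hold TGACGTCA, 13.6% TATAAA and 37.4% CCAAT. The serum response (CArG) and NF-kB motifs were not matched in these 3 windows, and occur in 1.63% and 4.51% of all windows. The GC box GGGCGG, found in 35.7% of all windows, matched in both Gas5 windows and in that of Snhg1, and is not in capitals. The Mir22hg window, not printed, holds GC box matches too, and CCAAT 116 and 47 bases before its start. The other Meg3 window, not printed, lies at the annotated start of Meg3-209 and holds 1 CArG match 94 bases before that start. A match is a description of the letters and not evidence of binding.

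Neat1 (ENSMUSG00000092274, chr19:5824708-5845478, minus strand) was lowest at the early times. It was 1188, 1176 and 1114 CPM in PBS, 896, 882 and 860.5 CPM at LPS 15 min, 877, 888 and 899 CPM at LPS 30 min, and 1325, 1268 and 1262 CPM at LPS 4 h. The early libraries were all below PBS and the LPS 4 h libraries all above it. The differences of -0.40 (SE 0.0257) and -0.39 (SE 0.0257) at the early times were within 1.5-fold (adjusted p = 1 for both) and passed the test against no change (adjusted p = 1.72e-11 and 2.98e-11). At LPS 4 h the value was 0.15 (SE 0.0257) relative to the bulk of genes and -0.56 with library size alone, so its direction depends on the scaling.

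Neat1 makes a short polyadenylated transcript and a long one that builds the paraspeckle. Fragments were assigned to the long Neat1-201 (20771 bases) at 14.8% ± 0.855 in PBS and, in time order after LPS, at 14.1% ± 0.0220, 13.9% ± 0.304 and 13.5% ± 0.314. The LPS 4 h share did not overlap with PBS (exact permutation p = 0.1), a difference of -1.35 percentage points. The short Neat1-202 was 980.5 ± 42.7 CPM in PBS, 752 ± 15.1 CPM at LPS 15 min and 1108 ± 28.7 CPM at LPS 4 h, and the long one 171 ± 5.05, 123.6 ± 2.61 and 173 ± 6.61 CPM. Libraries primed on poly(A) favour the short form, and the transcripts share their first bases, so the split is an estimate. As a share of TPM, which divides by length, Neat1-201 was 2.25% in PBS and 2.04% at LPS 4 h. Of 17 genes for paraspeckle proteins, 3 rose at LPS 4 h, when 19% of all genes were called higher, among them Taf15 (1.04) and Sfpq (0.85). At LPS 15 min and LPS 30 min 0 were called by edgeR, with 1 and 0 at an unadjusted p under 0.05 and 0 by DESeq2. The core gene Nono was at -0.13 at LPS 30 min, with every library below those of PBS, and was not called.

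Malat1 (ENSMUSG00000092341, chr19:5795690-5802672, minus strand) moved little in CPM before LPS 4 h. It was 937, 927 and 819 CPM in PBS, 836, 839 and 789 CPM at LPS 15 min, 849, 888 and 895 CPM at LPS 30 min, and 1279, 1286 and 1298 CPM at LPS 4 h. The early groups overlapped with PBS and the LPS 4 h libraries stood above all others. The value of 0.53 at LPS 4 h (SE 0.0367, 95% interval 0.45 to 0.60) did not pass the 1.5-fold test (adjusted p = 1) and became -0.18 with library size alone. At LPS 15 min the log2 fold change was -0.12 (SE 0.0365), which passed the test against no change (adjusted p = 0.0102). At LPS 30 min it was -0.03 (SE 0.0365) and passed neither test. Gm37376, on the other strand inside Malat1, held fragments worth 1.02% of those of Malat1.

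Genes with the most similar pattern over the 12 libraries were named for the 5 members whose group means spanned 1 or more on the log2(CPM + 1) scale, out of 10886 genes with a mean of at least 10 CPM. Pearson's r is a description here, since the libraries of a group share their treatment. Meg3 was followed most closely by Trank1, Rnf112 and Celsr3 (r = 0.996 to 0.997), with Trank1 at 182, 412, 177 and 213 CPM in PBS and at the 3 times. Mir155hg was followed by Traf1, a signalling adaptor of the TNF receptor family, Gm29562 and Gm29408 (r = 0.995 to 0.996). These r values compare the shape of a course and not its size. Traf1 was at 16.1, 15.8, 28.7 and 67.6 CPM in PBS and at the 3 times. Gm29408 went from 0.457 CPM in PBS to 86.1 CPM at LPS 4 h. Mir17hg was followed by Ercc1, Cd200 and the Notch ligand Dll1 (r = 0.998), Mir22hg by Wdr1, Ctps and the histone demethylase Kdm6b (r = 0.994 to 0.996), and Snhg1 by the splicing factor Rbm39, Csnk1a1 and Synpo (r = 0.997 to 0.998).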

How the data were processed

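RNA of cerebral vessels was measured in 12 libraries, 3 for PBS and 3 for each time after LPS (15 min, 30 min, 4 h), grouped by the sample records. The authors quantified paired reads with Salmon 1.2.1 against GRCm38.p6 and normalized genes with DESeq2. The deposited transcript files hold estimated counts of fragments, not normalized, and TPM, which the authors scaled for length, beside the effective length (another value, in bases). The deposited gene table holds a normalized signal that was divided by size and length factors.

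Transcripts were joined by identifier to GENCODE M21 (139852 of 140948; the rest held 0.482% to 0.850% of fragments), summed to 54119 genes and rounded. Depth was 18.3 to 25.9 M fragments per library, and intervals cover the spread between these pools. filterByExpr kept 19150 genes. All libraries entered 1 fit in edgeR 4.0.16 (R 4.3.3, TMM, glmQLFit), and glmTreat tested against 1.5-fold, with Benjamini-Hochberg adjustment over all genes and calls below 0.05. SEs were derived from each log2 fold change and its quasi-likelihood F statistic (absolute change over root F). The steps were tested on simulated data. Isoform shares were compared by exact permutation in scipy 1.17.1. Sequences came from RefSeq (GRCm38.p6) and GENCODE tables. No window was listed for Neat1.

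The members, lists and tests were chosen with earlier results of these data known. Named were the members, up to 4 called genes per list and comparison by size of change, marker genes, and the 3 genes of most similar pattern; any other gene was picked with its value in view. Some genes of the lists are counted but not reported here by name. Alternative settings comprised DESeq2 1.42.0 at the same fold limit, size factors by RLE, library totals alone, an unfiltered table, no fold limit, a length offset, only the groups compared, a replicate block, limma 3.58.1 on the gene table plus 1 or 10, leaving out each library, and shares of TPM.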

Additional observations from a re-analysis of the deposited data

Results flagged for a closer look

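Effects at different times after LPS were compared directly, and 6 differences passed the test against 1.5-fold (edgeR, adjusted p below 0.05). Between LPS 15 min and LPS 30 min, Mir155hg differed by 3.68 on the log2 scale, higher at the later time in 3 of 3 libraries. Meg3 differed by -1.05 over the same interval, lower at the later time in 3 of 3 libraries. Between LPS 30 min and LPS 4 h the differences were 3.26 for Mir155hg, 2.22 for Mir17hg, 1.24 for Snhg1 and 1.05 for Mir22hg, each higher at LPS 4 h in 3 of 3 libraries. Groups of 3 libraries were not screened for single outlying values.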

How the results depend on the processing

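With no fold limit the count of members called was 6, 5, 8, 4 and 8 for LPS 15 min, LPS 30 min and LPS 4 h against PBS, LPS 30 min against LPS 15 min, and LPS 4 h against LPS 30 min, where the test against 1.5-fold gave 1, 1, 5, 2 and 4; the limit itself makes this difference. Leaving out each library gave the same counts, and the other alternatives stayed within 1.5 times. Directions turned mainly with library size alone, which moves the median of all genes: at LPS 4 h against PBS for Neat1 (-0.56), Malat1 (-0.18) and Meg3 (-0.47), at LPS 4 h against LPS 30 min for Neat1 (-0.0058), Gas5 (-0.10) and Meg3 (-0.34), at LPS 30 min against PBS for Meg3 (-0.13) and Snhg1 (-0.0021), and at LPS 30 min against LPS 15 min for Neat1 (-0.13), Malat1 (-0.045), Mir17hg (-0.035), Gas5 (-0.043) and Snhg1 (-0.059). Malat1 also turned there under the length offset (-0.021) and under limma with 1 (-0.020) or 10 added (-0.020). None of these was called in the main test. With library size alone Gas5 at LPS 4 h (0.12; 0.59 under the length offset and under limma) and Mir22hg at LPS 4 h against LPS 30 min (0.52) were no longer called. Malat1 at LPS 4 h against LPS 30 min was called under the length offset (0.69). Without single libraries Mir155hg at LPS 15 min ranged from -0.57 to 0.31 (0.31 without PBS replicate 3 and 0.22 without LPS 15 min replicate 3), Malat1 at LPS 30 min from -0.087 to 0.0073 (the latter without PBS replicate 1), and Neat1 at LPS 30 min against LPS 15 min from -0.0027 (without LPS 15 min replicate 3) to 0.026, none of them called. With the replicate block the counts were 1, 1, 5, 2 and 4; same-numbered libraries correlated at -0.067 to 0.052 over 18 pairs, and the numbers were therefore treated as labels that pair nothing. With only the groups compared, Mir155hg at LPS 15 min fell below the filter. Depth limits Mir155hg in PBS and at LPS 15 min, where libraries held 2 to 12 fragments.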

Other observations

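Long noncoding RNAs outside the 8 genes were followed as a list of 28, of which 24 could be tested. At LPS 15 min 3 rose, Mirg (1.43), Miat (1.12) and Rian (0.86), and 1 fell, Xist (-2.10), beside a median of 0.06. Of all genes, 4.18% were called at that time. Miat, a nuclear RNA abundant in the nervous system, went from 188 ± 7.39 to 409 ± 3.88 CPM at LPS 15 min and fell by LPS 30 min against LPS 15 min (-1.12, adjusted p = 7.52e-14 by edgeR). Fendrr, an RNA transcribed beside the endothelial and mesenchymal factor gene Foxf1, fell at LPS 30 min (-0.84, adjusted p = 0.00257) and further at LPS 4 h (-2.18, adjusted p = 5.71e-15), from 41.3 ± 0.507 CPM in PBS to 9.06 ± 0.903 CPM. Zfas1 rose at LPS 4 h (1.47). The imprinted Peg13 fell at LPS 4 h (-1.39), from 117 ± 3.41 to 44.7 ± 2.55 CPM, and the imprinted zinc finger gene Plagl1 rose (1.91), from 16.6 ± 1.14 to 62.1 ± 3.01 CPM.

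The remaining marker lists moved as follows at LPS 4 h, when 32.8% of all genes were called (19% higher, 13.8% lower). Of 6 endothelial markers 1 rose, Cdh5 (1.96), and 4 fell at LPS 4 h, led by the tight junction gene Cldn5 (-2.31). Of 6 microglia markers 3 fell at LPS 4 h, led by Cx3cr1 (-2.55). The 5 erythroid markers all rose at LPS 4 h (1.498 to 1.62), from 2317 to 2492 CPM in sum in PBS to 6941 to 7306 CPM. Of 5 astrocyte markers 2 rose at LPS 4 h, Aqp4 (2.49) and Gfap (0.65), by edgeR, and DESeq2 called 0 of the 5. Of 5 pericyte markers 1 fell at LPS 4 h, Anpep (-1.76), of 4 fibroblast markers 1 fell, Col1a1 (-1.92), and of 4 oligodendrocyte markers 2 fell, Mog (-1.22) and Mag (-1.07), of which DESeq2 called 1. The oligodendrocyte list ran up to 0.53, and its sum was higher at LPS 4 h (377 to 393 CPM) than in PBS (322 to 336 CPM).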
